A study of Bos taurus with 21 samples.

Results

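A list of 8 genes that mark neutrophils was looked up by symbol in the gene counts of milk somatic cells, and 7 of the 8 had a row among the 13570 gene rows. They were S100A8, S100A9, S100A12, NCF1, CYBB, MMP9 and MPO. CSF3R, the receptor of the growth factor that drives neutrophil production, was not analysed here. The rule took the genes by symbol and used no threshold on their values, though other results of these data were known when they were listed. All 7 passed the filter on low counts that left 9548 genes for testing.

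The cells were collected from the milk of 21 Holstein cows, 1 library per cow, and no cow received a treatment in the sources used here. By the labels, 9 cows belonged to the high yielding group (HY) and 12 to the low yielding group (LY). HY cows were 41 to 268 days in lactation with a milk yield value of 181.118 to 468.053, and LY cows were 52 to 270 days in lactation with a value of -404.27 to 86.92. These values, like those of milk fat, protein and solid, are given without a unit. The study calls the milk yield value a breeding value, taken from the Korea Type-Production Index, and formed the yield groups on that index. Parity, the number of calvings, was 2 in 14 cows, 3 in 4 cows and 4 in 3 cows. Ages of the cows are not given in the sources used here. Cows are numbered below within HY and within LY.

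Neutrophils are the first leukocytes to enter an infected gland, and in milk they are counted among the somatic cells together with macrophages, lymphocytes and shed epithelial cells. S100A8, S100A9 and S100A12 are small calcium-binding proteins that neutrophils hold in large amounts in the cytosol and release as alarm signals. NCF1 and CYBB are parts of the NADPH oxidase, the enzyme that makes superoxide during the killing of microbes, while MMP9 and MPO are stored in granules, MPO being made mainly by precursors in bone marrow. Several of these genes, CYBB, MMP9 and S100A8 among them, are also made by monocytes and macrophages.

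The libraries held 7878557 to 28541904 reads on genes (median 11826889). No pair of cows agreed within sampling noise, and the chi-square statistic was at least 33.7 times its degrees of freedom. The neutrophil receptor CXCR2 was counted in every cow, with 1261 to 43769 reads, although CXCR1 was listed at 0 in all 21 cows. Of the other listed receptors, C5AR1 had a median of 2 reads (0 in 7 cows) and CD177 of 1 read (0 in 6 cows). Markers of other cells were present as well. CD68 and CD163 of macrophages had 3941 to 69724 and 547 to 17202 reads, and CD3E of T cells 107 to 7619 reads. The milk protein genes (4 caseins, LALBA and PAEP) took from 0.113% to 57.2% of the gene counts of a cow, with a median of 11.1%. In such bulk RNA, fewer cells of a type and less RNA per cell cannot be told apart. By the mapping rates in the study's supplement, 16 cows lay under 85% and 5 cows above, a split made on the rates alone since the labels name no batch, and values within the 16 cows are given beside the main ones.

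Levels are given as CPM, reads scaled to the library size with TMM factors. Because gene lengths were not used, a level can be compared between cows but not between genes. S100A8 ranged from 121 CPM in HY cow 9 to 1587 CPM in LY cow 2, with a median of 420 CPM. S100A9 ranged from 214 CPM, again in HY cow 9, to 3544 CPM in LY cow 10, with a median of 844 CPM. HY cow 9 had the lowest S100A12 too, 1093 CPM, while LY cow 4 had the highest, 5909 CPM, around a median of 2267 CPM. The ratio of the highest to the lowest cow was 13.1 for S100A8, 16.6 for S100A9 and 5.41 for S100A12, so S100A12 was the steadiest of the 3 across cows. In the ARS-UCD2.0 annotation the 3 genes follow one another in the order S100A8, S100A12, S100A9, with 0 other protein coding genes between them.

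For the oxidase, NCF1, its cytosolic organizer subunit, ranged from 47.5 CPM in HY cow 9 to 1366 CPM in HY cow 3, with a median of 309 CPM. CYBB, the membrane-bound catalytic subunit, ranged from 96.4 CPM in HY cow 8 to 927 CPM in LY cow 3, with a median of 578 CPM. The highest cow therefore differed between these 2 subunits. At the low end HY cow 8 and HY cow 9 were low for both, with NCF1 at 108 and 47.5 CPM and CYBB at 96.4 and 109.5 CPM. In these libraries the 10 highest genes took 62.9% and 59.8% of the gene counts, and the TMM factors were 0.448 and 0.480. The highest cow exceeded the lowest 28.7 times for NCF1 and 9.61 times for CYBB.

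Of the granule proteins, MMP9, a gelatinase that degrades matrix, ranged from 9.18 CPM in HY cow 9 to 202 CPM in HY cow 3, with a median of 54.4 CPM. MPO, the peroxidase that makes hypochlorous acid, had few reads. There were 1 to 149 reads per cow and at least 10 reads in 18 of 21 cows, so its values carry a large counting error. Its level ranged from 0.106 CPM in HY cow 3 to 7.16 CPM in HY cow 1, with a median of 2.04 CPM. HY cow 3 was thus the highest cow for MMP9 and NCF1 and the lowest for MPO, where it held a single read. Of the other granule genes, ELANE had a median of 8 reads and BPI of 31 reads, and CAMP was at 0 in 18 cows, while LYZ had a median of 15440 reads, LTF of 4441 reads and CHI3L1 of 1260 reads.

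**Figure D1:**
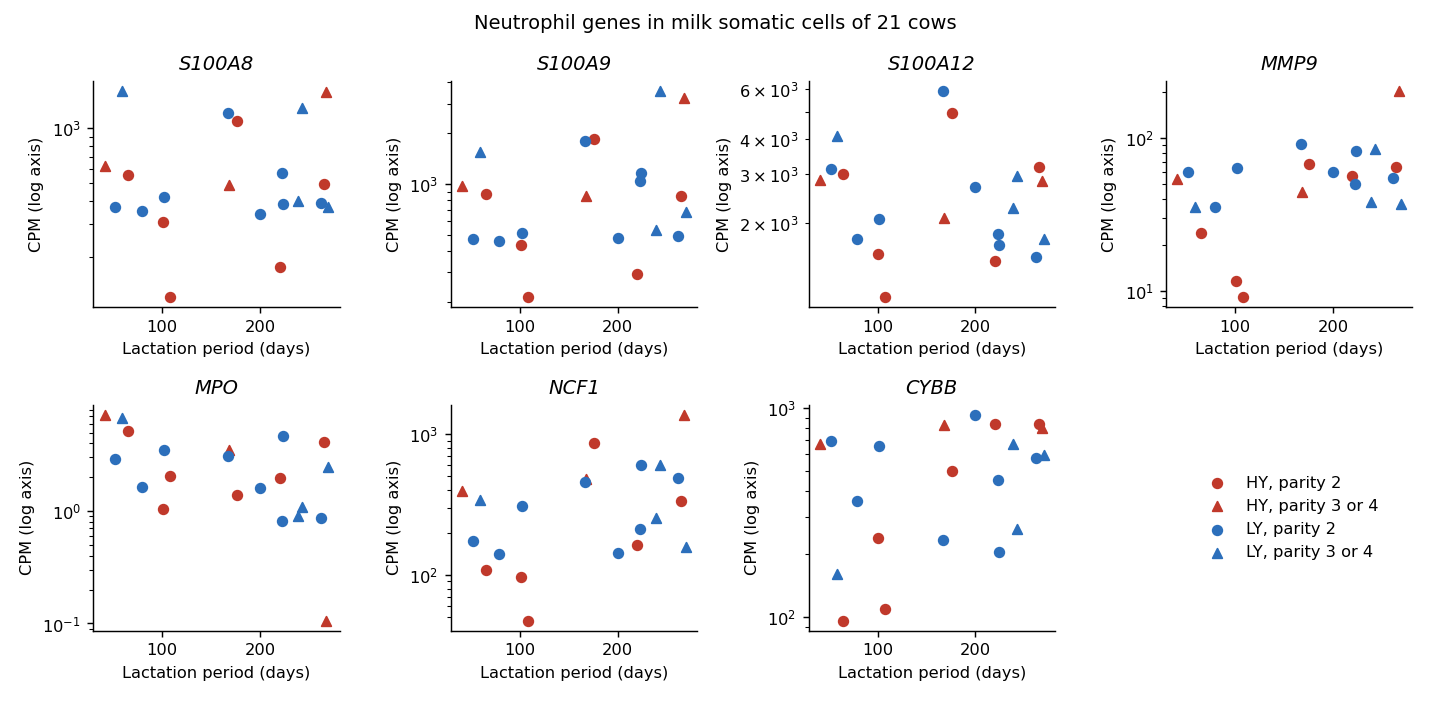
Normalized level (CPM, log axis) of the 7 neutrophil genes against the lactation period in days, 1 point per cow, with red for HY, blue for LY, circles for parity 2 and triangles for parity 3 or 4. HY cow 3 at day 268 is the highest point for MMP9 (202 CPM) and NCF1 (1366 CPM) and the lowest for MPO (0.106 CPM).

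Whether the genes varied together across cows was examined with the 21 pairs among the 7 genes, using log2(CPM + 0.25) and two-sided permutation tests. Where 2 cows were left out, they lay farthest from the median of 1 gene of the pair. That gene was the one that came first in the order S100A8, S100A9, S100A12, MMP9, MPO, NCF1, CYBB. S100A8 and S100A9, whose proteins pair as calprotectin, varied together most closely (Pearson r = 0.93, Spearman rho = 0.92, permutation p = 1e-05 for each, the smallest that 100000 resamples can give). Among the 9547 other genes tested, each was the closest of all to its partner. The r was 0.94 without the 2 cows farthest from the median of S100A8 and 0.96 within the 16 cows of lower mapping rate. S100A12 followed less closely, with r = 0.80 (permutation p = 3e-05) and rho = 0.73 (permutation p = 0.00028) against S100A8, and r = 0.67 (permutation p = 0.00104) and rho = 0.66 (permutation p = 0.00167) against S100A9. With the 2 cows farthest from the median removed these r were 0.81 and 0.63, and they were 0.83 and 0.75 within the 16 cows.

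NCF1 varied with S100A8, S100A9 and MMP9, and less closely with S100A12. Its r was 0.75 (permutation p = 7e-05) and its rho 0.69 (permutation p = 0.00082) with S100A8, and 0.50 (permutation p = 0.0211) and 0.38 (permutation p = 0.0877) with S100A12, for which r was 0.40 after removal of the 2 farthest cows and 0.70 in the 16 cows. Against S100A9 it gave r = 0.79 (permutation p = 3e-05) and rho = 0.76 (permutation p = 8e-05), with r = 0.74 after removal of the 2 farthest cows and 0.86 in the 16 cows. Against MMP9 it gave r = 0.83 (permutation p = 1e-05, again the smallest possible) and rho = 0.74 (permutation p = 0.00028), with r = 0.74 and 0.87 in the same checks. The 2 cows left out here were the lowest for MMP9, so HY cow 3, the highest for both genes, stayed in. MMP9 was related to S100A9 with r = 0.65 (permutation p = 0.00151) and rho = 0.56 (permutation p = 0.00917), and these checks gave 0.53 and 0.69. The rho of MMP9 was 0.42 with S100A8 (permutation p = 0.0581) and 0.40 with S100A12 (permutation p = 0.0714), where r was 0.59 (permutation p = 0.0054) and 0.48 (permutation p = 0.0263).

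CYBB and MPO varied less with the other members. CYBB gave r = 0.33 (permutation p = 0.141) and rho = 0.13 (permutation p = 0.563) against NCF1, its partner in the oxidase, with r = 0.051 after removal of the 2 farthest cows and 0.41 in the 16 cows. Its rho was -0.15 against S100A8 (permutation p = 0.516) and -0.19 against S100A9 (permutation p = 0.398). The r of CYBB with MMP9 was 0.52 (permutation p = 0.0149), but rho was 0.35 (permutation p = 0.124) and r was 0.29 once the 2 farthest cows were left out and 0.62 in the 16 cows. For MPO, rho with the other 6 genes ran from -0.15 with CYBB to 0.31 with S100A12 (permutation p = 0.166), and none of the 6 relations had a permutation p under 0.05.

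The other genes of the pathway are given as medians of rho over 21 cows, as a description with no test, beside a median near 0 over all 9541 other genes tested. NCF1 had a positive rho with 10 of 10 neutrophil receptor genes, with a median of 0.70 and the highest for PTAFR, the receptor of platelet-activating factor (0.86). S100A9 had a median of 0.55 with them, MMP9 0.50, S100A8 0.47 and S100A12 0.27, whereas CYBB had 0.21 and MPO -0.11. Of 22 listed granule genes 6 passed the filter. Among these, ELANE, CATHL5 and BPI had few reads, with medians of 8, 9 and 31 per cow. Except for MPO, the members had lower medians with the 6 granule genes than with the receptors. Over the granule genes the median was -0.28 for NCF1 (2 of 6 positive), -0.17 for MMP9, -0.10 for CYBB, -0.099 for S100A9 and -0.071 for S100A8. It was 0.15 for S100A12 and 0.088 for MPO. Single granule genes went the other way, with rho 0.81 between CHI3L1 and S100A8 and 0.78 between ELANE and NCF1. Among the oxidase partners, RAC2, the small GTPase of blood cells that switches the oxidase on, had rho 0.87 with NCF1. Its rho was 0.76 with S100A9, 0.72 with MMP9 and 0.68 with S100A8, so this was not particular to NCF1. The median over the 5 partners was 0.62 for S100A9 and 0.59 for both NCF1 and S100A8. It was 0.49 for S100A12, 0.42 for MMP9, 0.27 for MPO and -0.042 for CYBB. With 11 macrophage markers CYBB had a positive rho for 11 of 11 and a median of 0.37, with MERTK, a receptor for dying cells, the highest at 0.70. MPO had a median of 0.40 with the same markers, and C1QA, a complement subunit, was the highest at 0.70. The median was 0.26 for MMP9, with 10 of 11 positive, 0.064 for S100A12, -0.036 for S100A8, -0.088 for S100A9 and 0.084 for NCF1. CD68 departed from these medians. It was the highest marker for each of these genes, with rho from 0.55 with MMP9 to 0.60 with NCF1. With 9 T cell markers CYBB had a higher median still, 0.41 with 9 of 9 positive, and MMP9 had 0.33 and NCF1 0.32, also with 9 of 9 positive. CYBB also had the highest rho of the 7 genes with PTPRC, the CD45 protein common to all leukocytes (0.68), and MPO the lowest (-0.56). With 12 mammary epithelial genes the median was -0.59 for NCF1, -0.58 for MMP9 and -0.48 for CYBB, but -0.15 for S100A8 and -0.20 for S100A9. All these points share the library and its scaling, and the part of cell composition in them was not tested.

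**Figure D2:**
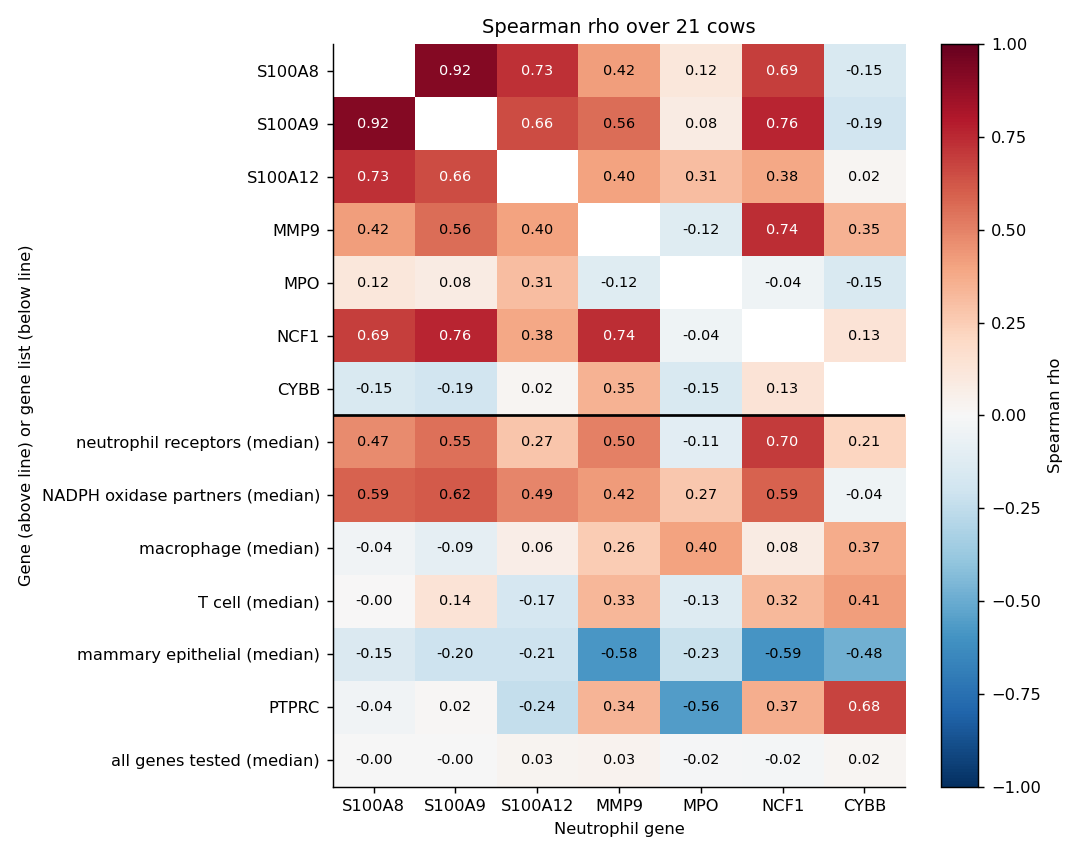
Spearman rho over 21 cows between the 7 neutrophil genes (above the black line) and, below it, the median rho of each gene with the genes of a list, with PTPRC as a single gene. Red is positive and blue is negative: S100A8, S100A9 and NCF1 form a red block, joined by S100A12 (rho = 0.73 with S100A8) and MMP9 (0.74 with NCF1). CYBB (rho = 0.13 with NCF1) and MPO stand apart. The granule genes are not drawn.

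The genes outside the group whose pattern was most like each member were named by the highest rho among 9547 genes. For S100A8 these were RPS6KA1 (0.87), VASP, an actin regulator (0.87), and SLC26A11 (0.86). For S100A9 they were DGAT2, an enzyme of triglyceride synthesis (0.91), NFE2, a transcription factor of blood cells (0.90), and C28H10orf54 (0.87). S100A12 had no gene nearer than ADORA2B, an adenosine receptor (0.74), followed by ELOVL1 (0.74), and the gene that came next was S100A8 itself (0.73). MMP9 was nearest to ACTN4, an actinin (0.85), CHPF2 (0.85) and RAB20 (0.85). NCF1 was nearest to FBRS (0.96), FGD3 (0.96) and PARM1 (0.96). CYBB was nearest to KYNU, an enzyme of tryptophan breakdown (0.93), SFXN1 (0.91) and HIATL1 (0.91). MPO was nearest to PRMT7 (0.91), BYSL (0.86) and CYP27A1, a sterol hydroxylase (0.83).

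The ratio of 2 members within a cow does not depend on scaling, and its change between cows can be read although its size depends on gene length. These ratios were chosen after the values were seen. Reads of S100A9 were 0.970 times those of S100A8 in LY cow 2 and 3.02 times in LY cow 12, with a median of 1.57. CYBB reads were 0.338 times those of NCF1 in LY cow 12 and 6.50 times in LY cow 3, with a median of 2.13. The calprotectin ratio stayed within a narrower range than the ratio of the oxidase subunits. Both ratios reuse the levels of the correlations above, so this is not separate evidence.

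**Figure D3:**
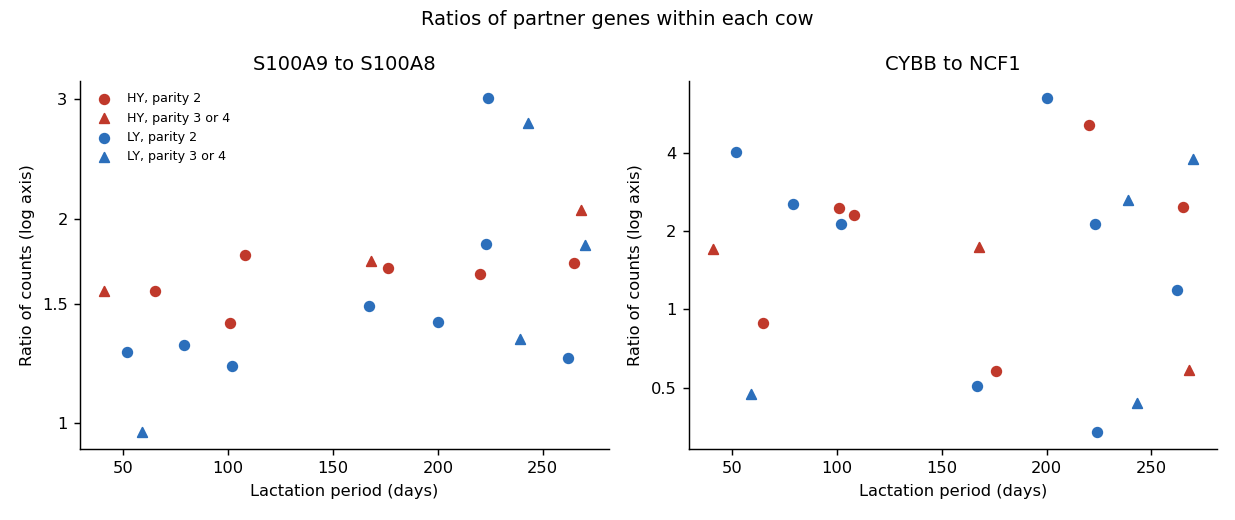
Ratio of counts (log axis) of S100A9 to S100A8 (left) and of CYBB to NCF1 (right) in each of 21 cows against the lactation period in days, with colours for HY and LY and triangles for parity 3 or 4. The left ratio lies between 0.970 and 3.02 and the right one between 0.338 and 6.50.

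The labels give the lactation period, which left a gap between 8 cows at days 41 to 108 and 13 cows at days 167 to 270. In the earlier cows MMP9 ranged from 9.18 to 63.5 CPM with a median of 35.2 CPM, and in the later cows from 37.1 to 202 CPM with a median of 60.3 CPM. NCF1 ranged from 47.5 to 395 CPM with a median of 157 CPM early, and from 142 to 1366 CPM with a median of 460 CPM late. MPO had 1.05 to 7.16 CPM with a median of 3.18 CPM early and 0.106 to 4.62 CPM with a median of 1.59 CPM late. The ranges of the earlier and later cows overlapped for these 3 genes, and the lowest cows for MMP9 and NCF1 were early ones.

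With the day as a number, edgeR's quasi-likelihood test gave a slope of 0.52 log2 per 100 days for MMP9 (SE 0.21, unadjusted p = 0.0203, adjusted p = 0.139). The slope was 0.60 for NCF1 (SE 0.27, unadjusted p = 0.0338, adjusted p = 0.173) and -0.64 for MPO (SE 0.27, unadjusted p = 0.0243, adjusted p = 0.151). After adjustment over 9548 genes, 0 of the 7 members passed, as did 0% of all genes. At an unadjusted p under 0.05 there were 3 of 7 members, beside 24.4% of all genes (9.16% with a positive slope and 15.2% with a negative one), and with so many genes below that level the 3 members are not a result about neutrophil genes. Without HY cow 1 edgeR called 316 genes and without LY cow 9 it called 325, no member among them in either fit. DESeq2 called 869 genes at an adjusted p under 0.05, and its lowest adjusted p among the members was 0.0674, for MMP9. For 5 of the 7 members the slope was positive, and the median slope was 0.34 beside -0.0050 over all genes.

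The other members gave slopes that the spread between cows covered. The slope was 0.45 log2 per 100 days for S100A9 (SE 0.27, unadjusted p = 0.109) and 0.34 for CYBB (SE 0.23, unadjusted p = 0.146). S100A8 had 0.073 (SE 0.25), and S100A12 had -0.11 (SE 0.18), which turned to 0.025 with library totals alone. Median S100A8 was 395 CPM early and 487 CPM late, and median S100A12 was 2462 CPM early and 2267 CPM late. Median S100A9 was 490 CPM early and 853 CPM late, and median CYBB was 299 CPM early and 598 CPM late, with ranges that overlapped for all 4 genes.

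In single-gene correlations with the day, MPO gave r = -0.54 (permutation p = 0.0114) and rho = -0.50 (permutation p = 0.0208), and r was -0.47 without the 2 cows farthest from the median day and -0.56 within the 16 cows of lower mapping rate. MMP9 gave r = 0.46 (permutation p = 0.0335) and rho = 0.41 (permutation p = 0.0624), with r = 0.58 and 0.54 in these checks. These p-values stand among 35 relations of the 7 genes with 5 traits and are not adjusted. A few cows and the choice of model decided the calls. Without HY cow 3 the slope of MMP9 was 0.32 (unadjusted p = 0.134) and that of NCF1 was 0.38 (unadjusted p = 0.177), and without HY cow 1 that of MPO was -0.50 (unadjusted p = 0.0994). For NCF1 the unadjusted p was 0.0625 with covariates and 0.0695 in the ordinary linear model. The slope of S100A9 was 0.60 without LY cow 2 (unadjusted p = 0.0436) and 0.55 without LY cow 7 (unadjusted p = 0.04996).

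PTPRC and the milk protein genes also had different medians in the earlier and later cows. PTPRC had a median of 318 CPM early and 669 CPM late and a slope of 0.69 log2 per 100 days (SE 0.22, unadjusted p = 0.00408, adjusted p = 0.0798). The milk protein genes took a median of 31.0% of gene counts early, from 0.191% to 57.2%, and 5.30% late, from 0.113% to 32.1%. In a fit with the log2 level of PTPRC as a covariate, added after the values were seen, 0 of 7 members and 133 genes had an unadjusted p under 0.05. The slope of MMP9 was then 0.31 (unadjusted p = 0.219), that of NCF1 0.30 (unadjusted p = 0.365), that of MPO -0.46 (unadjusted p = 0.146) and that of CYBB -0.12 (unadjusted p = 0.515). S100A9 kept a slope of 0.53 (unadjusted p = 0.143). PTPRC had a positive slope itself, and as a covariate it lowered the count over all genes from 2325 to 133. The fall to 0 members is therefore not a result about neutrophil genes. Whether cell content accounts for the slopes was not tested. Whether the slopes differed between HY and LY was tested with an interaction over all genes, also added later, in which edgeR called 0 genes, 103 genes had an unadjusted p under 0.05, and the lowest p among the members was 0.056, for MMP9.

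Of 10 neutrophil receptor genes that passed the filter, 6 had a positive slope with an unadjusted p under 0.05, beside 9.16% of all genes, and the median slope was 0.63. Among them were CSF2RB, a cytokine receptor chain (0.78, unadjusted p = 0.00622, adjusted p = 0.0901), CXCR2, the chemokine receptor that draws neutrophils into tissue (0.70, unadjusted p = 0.0204), PTAFR, IL1R2 and TREM1. No receptor had a negative slope at that level, and 0 of 10 passed after adjustment. Of the 5 oxidase partners, 1, RAC2, had a positive slope at that level (0.39, unadjusted p = 0.0343). Of 6 granule genes, 1, LTF, coding for lactoferrin, which mammary epithelium also makes, had a negative one (-0.79, unadjusted p = 0.0491). None of 9 other S100 genes, 11 macrophage, 9 T cell, 3 B cell and 2 eosinophil markers did, although the slopes of all 9 T cell markers were positive (0.38 to 0.66, unadjusted p from 0.0591 to 0.157) with a median of 0.57, close to that of the receptors, while 3 of 12 mammary epithelial genes, KRT19, LALBA and PAEP, had negative slopes at that level.

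**Figure D4:**
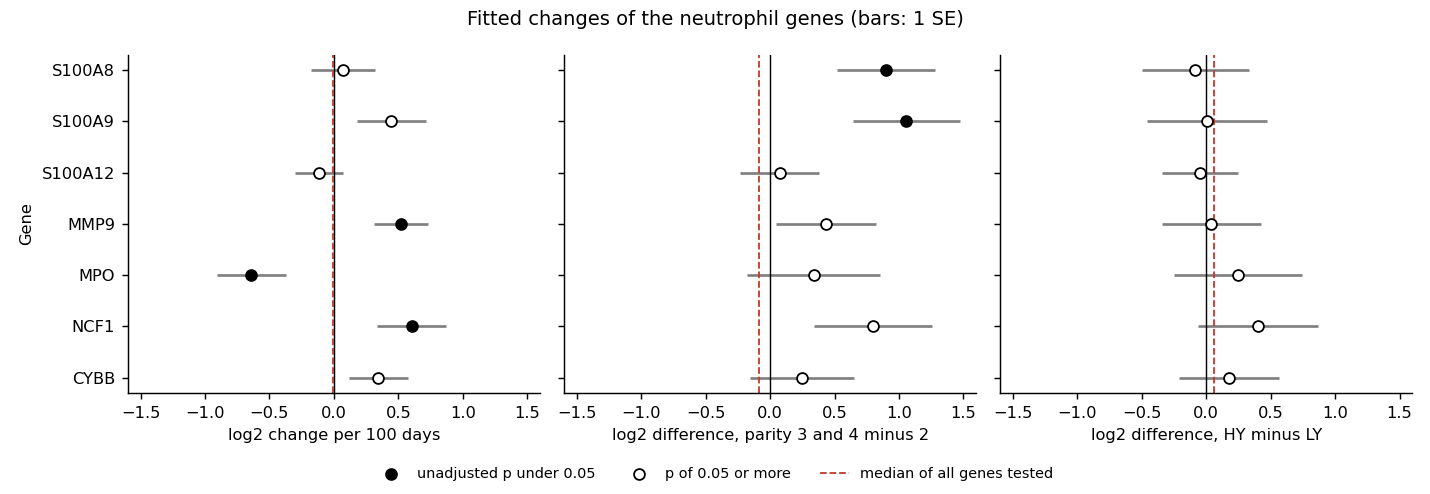
Fitted changes of the 7 neutrophil genes on the log2 scale with bars of 1 SE, for the lactation period per 100 days (left), parity 3 and 4 minus parity 2 (middle) and HY minus LY (right), with filled points for an unadjusted p under 0.05 and the median of all genes tested as a dashed line. MMP9, NCF1 and MPO are filled at left, S100A8 and S100A9 in the middle, none at right, and 0 of 7 passed after adjustment in any of the 3.

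Parity was compared as 7 cows of parity 3 or 4 against 14 cows of parity 2. S100A8 ranged from 374 to 1587 CPM with a median of 622 CPM in later parities, and from 121 to 1209 CPM with a median of 388 CPM in parity 2. S100A9 ranged from 534 to 3544 CPM with a median of 974 CPM in later parities, and from 214 to 1844 CPM with a median of 499 CPM in parity 2. The ranges overlapped, with the 3 highest cows for S100A8 and the 2 highest for S100A9 in later parities.

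The difference, later parities minus parity 2, was 0.90 log2 for S100A8 (SE 0.38, unadjusted p = 0.0255) and 1.06 log2 for S100A9 (SE 0.42, unadjusted p = 0.0183), each with an adjusted p of 0.99999 in edgeR's quasi-likelihood test. Called after adjustment were 0 of 7 members and 0% of all genes by edgeR and 0 genes by DESeq2. At an unadjusted p under 0.05 there were 2 of 7 members, beside 4.17% of all genes, or 2.66% with a positive difference. All 116280 regroupings of the cows into 7 and 14 were enumerated in an exact permutation test, two-sided and not adjusted, which gave p = 0.0420 for S100A8 and p = 0.0424 for S100A9. The differences of all 7 members were positive, but 4 of the 7 changed sign in another setting: S100A12 was -0.027 with library totals alone and -0.058 without LY cow 2, MPO was -0.089 in the ordinary linear model, MMP9 was -0.098 without HY cow 3 and CYBB was -0.048 with PTPRC as a covariate. The median difference was 0.43 beside -0.088 over all genes.

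S100A12, which lies between S100A8 and S100A9 in the annotation, differed by 0.073 log2 (SE 0.31, unadjusted p = 0.815), with medians of 2828 CPM in later parities and 1955 CPM in parity 2. NCF1 differed by 0.80 log2 (SE 0.46, unadjusted p = 0.0949), MMP9 by 0.43 (SE 0.39), MPO by 0.34 (SE 0.51) and CYBB by 0.25 (SE 0.40). Within the 16 cows of lower mapping rate the difference was 1.12 log2 for S100A8 (unadjusted p = 0.0228), 1.36 for S100A9 (unadjusted p = 0.0110) and 1.20 for NCF1 (unadjusted p = 0.0426). With PTPRC as a covariate it was 0.95 for S100A8 (unadjusted p = 0.0227) and 1.06 for S100A9 (unadjusted p = 0.0260).

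Single cows decided the unadjusted calls here too. The difference of S100A8 was 0.71 without LY cow 2 (unadjusted p = 0.0857), 0.71 without HY cow 3 (unadjusted p = 0.0851) and 0.80 without LY cow 10 (unadjusted p = 0.0591). That of S100A9 was 0.79 without HY cow 3 (unadjusted p = 0.0777) and 0.74 without LY cow 10 (unadjusted p = 0.0938). With parity as a number the change per calving was 0.52 log2 for S100A8 (unadjusted p = 0.0598) and 0.54 for S100A9 (unadjusted p = 0.111). Among the neutrophil receptors, 4 of 10 had a higher level in later parities at an unadjusted p under 0.05, beside 2.66% of all genes. Among these were FCGR3A, a receptor for the Fc part of IgG (1.56 log2, unadjusted p = 0.000264), CXCR2 (1.14, unadjusted p = 0.0161) and TREM1, an amplifier of inflammation (0.92, unadjusted p = 0.0323), and none of the 10 passed after adjustment. CHI3L1 was the only one of 6 granule genes at that level (0.79, unadjusted p = 0.0309), and no oxidase partner, other S100 gene or marker of macrophages, T cells, B cells, eosinophils or mammary epithelium was.

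The study compared cows by milk traits, and the neutrophil genes showed no difference larger than the spread between cows in any of them. HY and LY had medians of 496 and 396 CPM for S100A8, 853 and 609 CPM for S100A9, and 2828 and 2171 CPM for S100A12. For NCF1 the medians were 337 and 282 CPM, for CYBB 674 and 517 CPM, for MMP9 53.9 and 57.2 CPM, and for MPO 2.04 and 2.04 CPM. HY held both extremes for MMP9, NCF1 and MPO, and LY lay inside the range of HY for these 3 genes. The SD on the log2 scale was 1.37 in HY and 0.50 in LY for MMP9, and 1.58 and 0.80 for NCF1.

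In edgeR, HY minus LY ran from -0.084 log2 for S100A8 (SE 0.41) to 0.40 for NCF1 (SE 0.47, unadjusted p = 0.397), and 5 of 7 differences were positive. As differences in mean log2(CPM + 0.25), which the ordinary linear model also uses, signs changed for more than NCF1 (-0.099). They were -0.42 for MMP9, -0.22 for S100A8, -0.11 for S100A9, -0.060 for S100A12, -0.014 for CYBB and 0.046 for MPO. For these mean differences the exact permutation p lay between 0.342, for MMP9, and 0.975, for CYBB, over 293930 regroupings. Of the members, 0 of 7 had an unadjusted p under 0.05, beside 1.87% of all genes (179 genes). After adjustment edgeR called 0% of all genes and DESeq2 called 1, which was not a member.

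Against the milk yield value the slopes per 100 units ran from -0.042 log2 for S100A8 (SE 0.083) to 0.12 for NCF1 (SE 0.099, unadjusted p = 0.226). For milk fat the lowest p belonged to MMP9, with -0.50 log2 per 10 units (SE 0.27, unadjusted p = 0.0757). For milk protein it belonged to NCF1, with 0.54 log2 per 10 units (SE 0.36, unadjusted p = 0.151), and for milk solid to MPO, with -0.12 log2 per 10 units (SE 0.11, unadjusted p = 0.276). In each of these 4 fits 0 of 7 members had an unadjusted p under 0.05, beside 1.61% of all genes for yield (154 genes), 0.848% for fat (81 genes), 1.02% for protein (97 genes) and 1.2% for solid (115 genes). After adjustment edgeR called 0 genes in each, and DESeq2 called 0 for yield, fat and protein and 1 for solid, which was not a member. Of the 10 receptor genes, 5 oxidase partners and 6 granule genes, 0 had an unadjusted p under 0.05 in these 4 fits or between HY and LY, and among the other lists S100A16 (yield, protein and solid) and the B cell marker MS4A1 (solid) did, each with a negative slope. The correlation largest in size between a member and these traits was r = -0.39 between MMP9 and milk fat (permutation p = 0.0841, rho = -0.31, permutation p = 0.168), with r = -0.44 without the 2 cows farthest from the median fat value and -0.45 within the 16 cows.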

How the data were processed

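For each cow the authors deposited raw read counts per gene. Per the labels and the study's methods, reads were trimmed with Trimmomatic, mapped to the bosTau7 genome with TopHat2, which runs Bowtie2, converted to SAM with SAMtools and counted with HTSeq, with versions not given in the sources used here. Rows that name no gene held 35.5% to 56.5% of the reads of a cow and were left out, and 23 symbols that had turned into calendar dates could not be named.

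Counts were tested with edgeR 4.0.16 (quasi-likelihood F test, TMM factors, filterByExpr with a minimum count of 10) in R 4.3.3, 1 fit per trait over all 21 cows, with Benjamini-Hochberg adjustment over 9548 genes and a threshold of 0.05. The SE was derived from the F statistic. Single values used two-sided permutation tests with 100000 resamples, or exact ones, on log2(CPM + 0.25) in Python 3.11.15 with scipy 1.17.1. The scripts were tested on simulated data. Alternatives were DESeq2 1.42.0 and its size factors, library totals without TMM, no filter, an ordinary linear model, covariates, the 16 cows of lower mapping rate, ranks of the day, parity as a number, and each cow left out. The covariate PTPRC, the interaction and the ratios were added after the values were seen. The mapping rates came from a supplement of the study. Genes outside the members were to be named as the 3 most alike to each member and, from each list of cell type markers, as the 2 with the lowest p for lactation or yield and the one with the highest level. Of the lists, the text names mainly genes with an unadjusted p under 0.05, chosen after their values were seen. The members and lists were chosen with earlier results of these data known. Each library is a separate cow, and p-values measure the spread between cows.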

Additional observations from a re-analysis of the deposited data

How the results depend on the processing

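No member passed at an adjusted p under 0.05 in any setting run. No paired analysis was possible because each library is a different cow and the labels number no replicates, the cow numbers used here being names given in accession order. Library totals without TMM moved the median lactation slope of all genes from -0.0050 to 0.16 and the median of HY minus LY from 0.062 to -0.14. At an unadjusted p under 0.05, library totals gave 1 of 7 members and 1250 genes for lactation and 1 member and 143 genes for parity, and parity as a number gave 0 members. The PTPRC covariate, added after the values were seen, gave 0 members and 133 genes for lactation. S100A12 changed sign, to 0.025 (library totals) and 0.030 (the 16 cows of lower mapping rate) for lactation and to -0.027 (library totals) for parity. CYBB did so with PTPRC, to -0.12 for lactation and -0.048 for parity. In the ordinary linear model MPO turned to -0.089 for parity and NCF1 to -0.099 for HY minus LY, and MPO turned to 0.032 for milk solid with covariates. For the yield groups and milk traits, the sign was followed across settings only for the member with the lowest p. The causes were not tested.

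Adjusted calls over all genes were 869 for lactation, 1 for HY minus LY and 1 for milk solid with DESeq2, and 3 for lactation, 13 for milk yield and 4 for milk solid with no filter on low counts, which tests more genes. Unadjusted counts with no filter were 706 for parity, 456 for yield, 580 for HY minus LY, 354 for fat, 342 for protein and 386 for solid. With DESeq2 they were 248 for yield, 158 for fat, 189 for protein and 189 for solid, and in the 16 cows 111 for HY minus LY and 186 for fat.

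Leaving out 1 cow at a time gave 0 to 325 adjusted calls for lactation (316 without HY cow 1, 325 without LY cow 9). Unadjusted counts ran from 1549 (without HY cow 8) to 2602 for lactation, from 196 (without HY cow 3) to 813 (without HY cow 1) for parity, from 80 to 331 for yield, 128 to 309 for HY minus LY, 62 to 279 for fat, 68 to 223 for protein and 61 to 186 for solid. Members at that level numbered 1 to 3 for lactation (1 without HY cow 3 or HY cow 8), 0 to 3 for parity (0 without HY cow 3 or LY cow 10), 0 to 1 for fat (MMP9) and 0 to 1 for protein (NCF1). The lactation slope of S100A8 ran from -0.12 (without HY cow 3) to 0.33, the parity difference of MMP9 from -0.098 (without HY cow 3) to 0.60 and of S100A12 from -0.058 (without LY cow 2) to 0.26, and HY minus LY of NCF1 from -0.059 (without HY cow 3) to 0.59. MPO, with 3 cows under 10 reads, was the member most limited by depth.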

Other observations

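The ratios of member pairs within a cow, chosen after the values were seen, were set against 5 traits, the 2 yield groups and parity, 21 relations in all, with p-values that are not adjusted. S100A9 to S100A8 had a median of 1.36 in the 8 cows at days 41 to 108, from 0.970 to 1.77, and of 1.72 in the 13 cows at days 167 to 270, from 1.25 to 3.02. Its log2 value gave r = 0.51 (permutation p = 0.0164) and rho = 0.54 (permutation p = 0.0121) with the lactation period, and r was 0.51 without the 2 cows farthest from the median day and 0.66 within the 16 cows of lower mapping rate. With the milk yield value the same ratio gave r = 0.36 (permutation p = 0.112) and rho = 0.45 (permutation p = 0.0429), and with milk protein r = 0.35 (permutation p = 0.119) and rho = 0.46 (permutation p = 0.0353), with r = 0.34 and 0.33 without the 2 farthest cows and 0.46 and 0.40 within the 16. With milk solid it gave r = 0.31 (permutation p = 0.170) and rho = 0.43 (permutation p = 0.0539), and with milk fat r = 0.15 (permutation p = 0.520) and rho = 0.24 (permutation p = 0.296). The log2 ratio of CYBB to NCF1 gave r = -0.046 with the lactation period (permutation p = 0.840) and rho = 0.0091 (permutation p = 0.970).

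Reads of S100A12 were 1.79 to 5.65 times those of S100A8 in the 7 cows of parity 3 or 4, with a median of 4.28, and 3.22 to 9.05 times in the 14 cows of parity 2, with a median of 5.0. The difference in the mean log2 ratio was -0.69 (exact permutation test, two-sided p = 0.00878), and the ranges overlapped. This ratio reuses the levels of the parity comparison, where mean log2 was 0.89 higher for S100A8 and 0.19 higher for S100A12, so it is not separate evidence. The lowest ratios were 1.79 in HY cow 3, 2.30 in LY cow 10 and 2.58 in LY cow 2, the cows that decided the S100A8 call. The ratio was not tested again without single cows. Between HY and LY the log2 ratio of S100A12 to S100A8 differed by 0.16 (exact permutation p = 0.555), that of S100A9 to S100A8 by 0.11 (exact permutation p = 0.511) and that of CYBB to NCF1 by 0.085 (exact permutation p = 0.882).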
